A study of Rattus norvegicus with 12 samples.

Results

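The genes described here encode the subunits of oxidative phosphorylation, read on Affymetrix arrays in the aorta and the semilunar valves of newborn and adult rats. They were taken from the array's annotation as probe sets with 1 gene symbol that starts with Ndufa, Ndufb, Ndufc, Ndufs or Ndufv (complex I), Uqcr (complex III), Cox4 to Cox8 (complex IV) or Atp5 (ATP synthase), or that is Sdha, Sdhb, Sdhc, Sdhd (complex II) or Cycs (cytochrome c). The rule found 96 probe sets for 86 genes, of 14217 genes with such a probe set on the array. Each gene is represented by its brightest probe set. Of the 86 genes, 84 had a signal above 171.944, the median of all signals, on at least 3 of the 12 arrays and were tested. Cox7b2, an isoform of a complex IV subunit, and Cox6c-ps1, which RefSeq lists as a pseudogene, were not. All 12 arrays were above that signal for 75 of the 84. By complex, 34 tested genes belonged to complex I, 4 to complex II, 7 to complex III, 15 to complex IV and 16 to ATP synthase. Ndufa4, first counted to complex I and now to complex IV, and its relative Ndufa4l2 are kept apart. The prefix Ndufa also takes 6 assembly factors of complex I (Ndufaf1, Ndufaf3, Ndufaf4, Ndufaf5, Ndufaf7 and Ndufaf8), which are not subunits, so 78 tested genes remain without them. Atp5if1, the inhibitor of ATP synthase, and Cox7a2l, a factor that joins complexes into supercomplexes, are likewise in the set without being classical subunits. Cycs had no probe set with a single symbol, and 9 probe sets that carry several symbols, of which 1 or more would qualify, were left out.

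Complexes I to IV of the inner mitochondrial membrane pass electrons from NADH and succinate to oxygen and pump protons, and ATP synthase uses the proton gradient to make ATP. All the genes described here lie in the nucleus, and their proteins are imported into mitochondria, where they meet a small number of subunits encoded by mitochondrial DNA. Several complex IV subunits exist as isoforms: Cox6a2, Cox7a1 and Cox8b are known from heart and skeletal muscle, and brown fat makes Cox7a1 and Cox8b too, while Cox6a1 and Cox8a are made in most tissues. Heart muscle is among the tissues richest in mitochondria. The aortic wall is made largely of smooth muscle cells and the valve leaflet of interstitial cells, both covered by endothelium.

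All rats were of the Wistar strain, with no transgene or treatment named. The groups were the proximal aorta and the semilunar valves (aortic and pulmonary together) of newborns, collected within 24 h of birth, and the same 2 tissues of adults labelled male, with 3 arrays in each of the 4 groups. An adult age, the sex of the newborns, and whether tissue of several animals was pooled are not stated in the labels. The labels do not say that the 3 arrays of a group come from separate animals, so p-values measure the spread between these samples, which may be technical.

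Groups follow the sample titles and source names. The description and tissue entries of the 3 arrays titled adult aorta name neonatal valve, and those of the 3 arrays titled neonatal valve name adult aorta. Igf2, a growth factor of fetal and newborn tissue, had signals of 339 to 879 on the arrays titled adult aorta and of 6189 to 8898 on those titled neonatal valve. Xist, expressed from the inactive X chromosome of females, was at 10998 to 18362 on all 6 valve arrays, including the adult valves labelled male, and at 297 or less on the 6 aorta arrays. Eif2s3y, a gene of the Y chromosome, was at 1379 to 2557 on the aorta arrays and at 134 or less on the valve arrays. Some arrays stood apart in genes of other cell types. The summed signal of 12 heart muscle markers was 121626 to 132469 on the neonatal valve arrays and 42712 to 69994 on the neonatal aorta arrays. On the adult valve arrays it was 22463, 114592 and 5804. On the adult aorta arrays it was 31293, 7154 and 8145. Of these sums Myl3, also made in slow skeletal muscle, gave 29462 on the first array, and Pln gave 5746 and 6059 on the others. Myh6 was at 106 and 124 and Tnnt2 at 12.2 and 2.15 on adult aorta 2 and 3, beside 945 and 1864 on adult valve 3. The sum thus does not rank these arrays by Myh6 or Tnnt2. Adult aorta 1 had a sum of 196379 for skeletal muscle markers (10 genes), where the remaining 11 arrays had 4555 to 41467, and squamous epithelium markers (7 genes) summed to 156797 there and to 71238 on neonatal aorta 2. Brown fat markers (4 genes, Ucp1 among them) reached 59223 and 23983 on adult aorta 2 and 3, and 1489 on adult aorta 1. Of these 4, only Ucp1 and Cidea were above 171.944 on any array, while Elovl3 and Dio2 were at 99.4 or less throughout. The smooth muscle sum, over 8 genes, was 1775 on adult valve 3 and 10777 to 126115 elsewhere. Thymocyte markers summed to 35394 on neonatal valve 3 against 435 to 3188 on the other 11 arrays. Beta-actin is read by probe sets at its 3' and 5' ends, and their ratio (3' over 5'), which rises as RNA is broken or copied incompletely, was 1.40 to 2.59 on the aorta arrays, 7.24 to 8.84 on the neonatal valve arrays and 10.6 to 14.0 on the adult valve arrays. Between valve and aorta it differed by 2.58 in log2 (exact permutation test, two-sided, 6 against 6 arrays, p = 0.0022, the smallest p these numbers allow). Added control RNAs were read too, by their 3' probe sets. The dap signal was 5.82 to 3649 on the aorta arrays and 4363 to 13879 on the valve arrays. The bioC signal was 1156 to 3792 and 232 to 589. Signals of lys and phe were also higher on every valve array, while those of bioB, bioD and cre overlapped. Between valve and aorta, tissue, beta-actin ratio, the dap and bioC signals and the sex read from Xist and Eif2s3y therefore cannot be told apart.

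**Figure D1:**
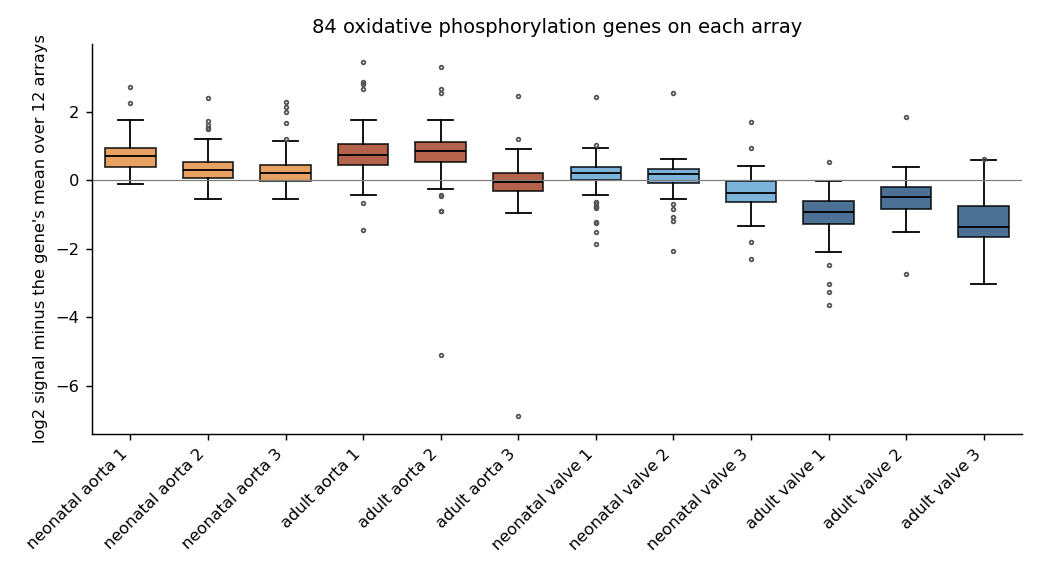
Log2 signal of the 84 tested oxidative phosphorylation genes relative to each gene's mean over the 12 arrays (y axis), as a box for each array (x axis). A line marks the array's median, and dots are outlying genes. The 3 adult valve arrays hold the lowest medians, and adult aorta 3 and neonatal valve 3 sit below the other arrays of their groups.

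The oxidative phosphorylation genes had their lowest signals in the adult valve. The mean of the 3 adult valve arrays was the lowest of the 4 group means for 77 of 84 genes, whereas adult valve was the lowest group for 29.6% of all 18552 probe sets tested. The highest mean was in adult aorta for 51 genes, in neonatal aorta for 19, in neonatal valve for 13 and in adult valve for 1. The median log2 signal of the 84 genes was 12.75, 12.45 and 12.30 on the neonatal aorta arrays and 12.79, 12.95 and 12.05 on the adult aorta arrays. It was 12.47, 12.43 and 11.83 on the neonatal valve arrays and 11.03, 11.66 and 10.52 on the adult valve arrays. All 3 adult valve arrays were thus below each of the other 9, while the other 3 groups overlapped one another.

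The arrays of a group also moved apart together in these genes, as the plot of signals relative to each gene's mean shows. Neonatal aorta 1 was the highest of its 3 arrays for 77 of 84 genes, adult aorta 3 the lowest for 74, neonatal valve 3 the lowest for 75 and adult valve 2 the highest for 63. Adult valve 3 was the lowest of all 12 arrays for 56 genes, and adult aorta 2 the highest of all 12 for 44. The genes are therefore not independent of one another, and a count over them is not a count of separate observations. Within adult aorta the standard deviation of the log2 signal had a median of 0.53 over the genes and 0.46 over all probe sets tested, and within adult valve 0.48 and 0.37. In neonatal aorta the figures were 0.27 and 0.21, and in neonatal valve 0.31 and 0.29.

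Adult valve 2 had a heart marker sum of 114592, beside 121626 to 132469 on the neonatal valve arrays. It lay below all 3 neonatal valve arrays for 58 of 84 genes, against 33.3% of all probe sets. It was also the highest of the 3 adult valve arrays for 63 of the 84 genes. Whether heart muscle in the samples bears on the level of these genes was not tested. In tissue RNA of this kind, fewer cells of a type and less RNA per cell cannot be told apart.

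Differences between groups are given as log2 differences with the standard error of the fit, and a gene is called higher or lower at an adjusted p under 0.05 by limma over all 18552 probe sets. In the adult, valve and aorta differed in most of these genes: 60 of 84 were lower in valve and 2 were higher, against 19.9% of all probe sets lower and 17.3% higher. The median difference over the 84 genes was -1.42, with 79 genes below 0, and that over all probe sets was -0.05. For 55 genes all 3 adult valve arrays lay below all 3 adult aorta arrays, against 23.2% of all probe sets. Without adult aorta 1 and adult valve 2, the arrays with the highest skeletal and heart muscle sums of their groups, 63 genes were lower and 2 higher, with a median of -1.53. Fat markers also varied over these arrays. White fat markers (7 genes) summed to 8341, 93228 and 31835 in adult aorta and to 7736, 8994 and 3519 in adult valve, and brown fat markers to 1489, 59223 and 23983 and to 845, 1556 and 342. Without adult aorta 2 and 3, the arrays high in both, 61 genes were lower and 2 higher, with a median of -1.64, adult aorta 1 then being the only array of its group. With the groups taken from the description and tissue entries, 9 genes were called and the median was -0.91, since this is then the comparison of adult valve with the arrays titled neonatal valve.

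**Figure D2:**
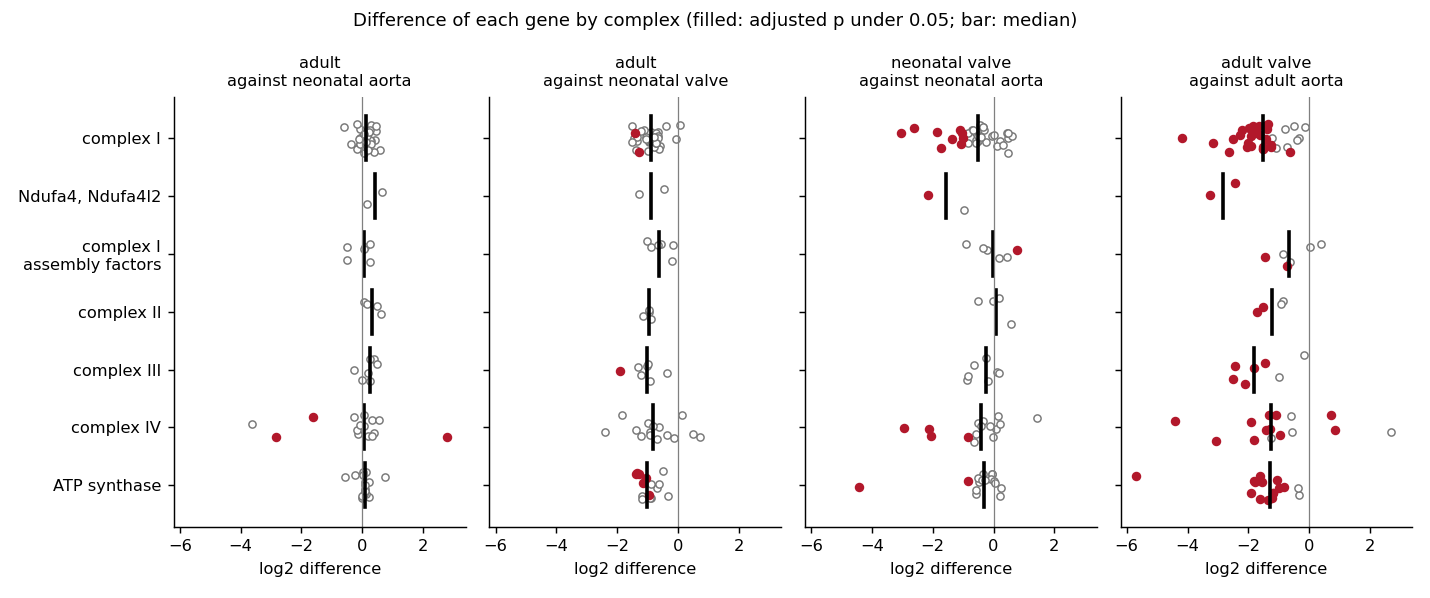
Log2 difference of each tested gene (points) in 4 comparisons of groups, by complex, with the complex's median as a bar; filled points passed an adjusted p under 0.05 in limma. In the adult, all tested genes of complexes I, II and III and of ATP synthase lie below 0, as do 12 of 15 of complex IV and 4 of 6 assembly factors, while the age difference in aorta is spread around 0.

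Complex I, which takes electrons from NADH, had 26 of its 34 genes lower in adult valve than in adult aorta and none higher, with a median of -1.52. Ndufb8, a membrane-arm subunit, had signals of 1067, 1930 and 613 in adult aorta and of 34.4, 153 and 40.4 in adult valve. In the newborn its signals were 1591, 1087 and 1053 in aorta and 194, 183 and 94.6 in valve. Every valve array was thus below every aorta array, at both ages. Adult valve 1 and 3 were at the 5.82 to 54.6 read by probe sets of added control RNAs, such as dap, on neonatal aorta 2 and 3. Those 2 arrays carried almost none of these RNAs. The adult difference was -4.18 ± 0.57 (SE, 3 against 3 arrays, limma adjusted p = 0.00039). Since part of the valve signal is at that level and 1 probe set reads the gene, the size of the difference is uncertain. Ndufb8 was above 171.944 on every aorta array and on 2 valve arrays, so it entered the test through the aorta. The call was kept with no filter. Ndufa11, another membrane-arm subunit, had signals of 5834, 5283 and 3052 in adult aorta and of 459, 795 and 352 in adult valve, a difference of -3.17 ± 0.44 (limma adjusted p = 0.00043). Ndufa5 (-2.63 ± 0.38), Ndufb10 (-2.49 ± 0.31) and Ndufb1 (-2.29 ± 0.31) were lower as well. Of the catalytic core, 6 subunits were tested and 5 were lower: Ndufs8 (-2.02 ± 0.35), Ndufs3 (-1.85 ± 0.44), Ndufs7 (-1.77 ± 0.33), Ndufv1, which binds NADH (-1.53 ± 0.44), and Ndufv2 (-1.51 ± 0.34). Ndufs1, the largest core subunit, had -1.23 ± 0.55 and did not pass (limma adjusted p = 0.097). Ndufb3 had the difference nearest to 0 in this complex (-0.14 ± 0.24), with signals of 10224, 9559 and 5967 in adult aorta and 6200, 7662 and 9093 in adult valve, and these overlapped. Among the 6 assembly factors only Ndufaf1 (-1.44 ± 0.44) and Ndufaf7 (-0.73 ± 0.22) were lower. Without adult aorta 1 these were -1.06 and -0.63, with limma adjusted p of 0.078 and 0.063, and both calls were also lost without adult valve 1 or adult valve 3 and that of Ndufaf1 without adult aorta 2. Ndufaf1 was above 171.944 on 3 neonatal aorta, 2 adult aorta and no valve arrays, so it entered the test through the aorta, where it is high. With no filter its call was kept.

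Ndufa4 and Ndufa4l2 were both lower in adult valve. Ndufa4l2, a paralog known to be induced in hypoxia and made in pericytes and smooth muscle, had signals of 972, 377 and 203 in adult aorta and of 33.3, 51.6 and 49.6 in adult valve. The valve values lie in that range of absent RNA too, so the difference of -3.25 ± 0.50 is set against a signal no higher than background of this kind. Ndufa4l2 was above 171.944 on every aorta array and on no valve array, so it entered the test through the tissue in which it is high. Its call was kept with no filter. Ndufa4 differed by -2.43 ± 0.42 (limma adjusted p = 0.0013), with 9777 to 16378 in adult aorta and 1123 to 4669 in adult valve.

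Complex II, succinate dehydrogenase, links the citric acid cycle to the chain and had 2 of its 4 genes lower in adult valve. The iron-sulfur subunit Sdhb differed by -1.71 ± 0.41 (limma adjusted p = 0.0074) and the membrane anchor Sdhc by -1.51 ± 0.31 (0.0037). The flavoprotein Sdha, with signals of 9186, 12655 and 5050 in adult aorta and 4332, 8915 and 2596 in adult valve, overlapped and did not pass (-0.85 ± 0.43). Sdhd, the other anchor, had -0.91 ± 0.33 and an adjusted p just above the threshold. It passed when adult aorta 3 or adult valve 2 was left out (limma adjusted p 0.017 and 0.010). A dimmer probe set of Sdhd was lower with all arrays (-1.18 ± 0.28, limma adjusted p = 0.0077).

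In complex III, which passes electrons from ubiquinol to cytochrome c, 5 of 7 genes were lower in adult valve, with a median of -1.82. Uqcrfs1, the Rieske iron-sulfur protein, had signals of 12482, 13856 and 4597 in adult aorta and of 1329, 4082 and 833 in adult valve. The groups did not overlap, though adult aorta 3 and adult valve 2 came close to each other. Its difference was -2.49 ± 0.53 (limma adjusted p = 0.0044). The small subunits Uqcr10 (-2.45 ± 0.37) and Uqcrq (-2.12 ± 0.31) were lower by about as much, while Uqcrh, the hinge protein, had -0.17 ± 0.21, with signals of 8325 to 12844 in adult aorta and 8371 to 11603 in adult valve.

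Complex IV, cytochrome c oxidase, had 9 of 15 tested genes lower and 2 higher in adult valve. The subunits made in most tissues were lower: Cox7b by -3.06 ± 0.35, Cox4i1 by -1.91 ± 0.23, Cox5b by -1.80 ± 0.41, Cox6a1 by -1.43 ± 0.32 and Cox6b1 by -1.30 ± 0.35. Without adult aorta 2 the difference of Cox6b1 was -1.07, with a limma adjusted p of 0.052. Cox8a, whose signals were 6387, 17953 and 9380 in adult aorta and 7308, 6446 and 7030 in adult valve, overlapped and did not pass (-0.57 ± 0.30). The genes higher in valve were Cox7a2l, the supercomplex factor (0.72 ± 0.18, limma adjusted p = 0.010), and Cox6b2, known as the testis isoform of subunit VIb (0.85 ± 0.30, 0.042). Cox7a2l had signals of 5265, 4857 and 7082 in adult aorta and of 9681, 8004 and 10364 in adult valve, without overlap. The call of Cox6b2 was lost with no filter (0.85, limma adjusted p = 0.063), and when any of 9 of the 12 arrays was left out, all 6 adult arrays among them, with differences of 0.67 to 0.96.

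ATP synthase had 14 of 16 genes lower in adult valve and none higher. The catalytic head subunits Atp5f1a (-1.34 ± 0.38) and Atp5f1b (-0.82 ± 0.23), which bind the nucleotides, were lower, and so were the stalk subunits Atp5pb (-1.91 ± 0.36) and Atp5pd (-1.82 ± 0.26). Differences between subunits were not tested. The inhibitor Atp5if1 (-0.34 ± 0.46) and Atp5mc3 (-0.37 ± 0.27), the only tested gene for subunit c of the membrane ring, did not pass. Atp5mg, subunit g of the membrane part, stood far from the rest. Its signals were 13123, 10431 and 9531 in neonatal aorta and 12472, 12423 and 10833 in adult aorta, but 684, 468 and 400 in neonatal valve and 158, 292 and 256 in adult valve. No valve array came near any aorta array at either age. The difference was -5.71 ± 0.27 in the adult (52.2-fold, limma adjusted p = 3.7e-06) and -4.44 ± 0.27 in the newborn (21.7-fold, 7.2e-06).

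At birth the tissues differed in fewer of these genes. In neonatal valve against neonatal aorta, 16 of 84 genes were lower and 1 was higher, against 19.3% of all probe sets lower and 13.3% higher, so the share of the genes was close to that of the array as a whole. The median difference was -0.37, beside -0.09 over all probe sets, with 60 genes below 0. Complex I had 9 lower genes, complex IV 4, ATP synthase 2 and the Ndufa4 pair 1, and complexes II and III had none. Without neonatal aorta 1 or without neonatal valve 3, 10 genes were called in all. White fat markers summed to 59136, 43027 and 33634 in neonatal aorta and to 3219 to 5413 in neonatal valve. Brown fat markers summed to 19420, 13176 and 5403, and to 827 to 2506. Heart muscle markers went the other way, with 42712 to 69994 in aorta and 121626 to 132469 in valve. The part of these markers in the differences was not tested.

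Of the 16 lower in neonatal valve, 14 (87.5%) were also among the 60 lower in adult valve, and these 14 were 23.3% of the 60. Since 71.4% of the 84 genes were lower in adult valve, and 69.2% of all probe sets lower at birth were lower in the adult too, a large share is no result about these genes. Large differences besides Atp5mg were those of Ndufb8 (-3.03 ± 0.57), Ndufa11 (-2.61 ± 0.44), Cox6b2 (-2.13 ± 0.30), Cox7b (-2.07 ± 0.35) and Ndufa5 (-1.85 ± 0.38). Cox4i2 (-2.95 ± 0.34) and Ndufa4l2 (-2.14 ± 0.50) also passed, with neonatal valve signals of 45.9 to 50.1 and 56.5 to 62.8. These are at or near the range read for absent control RNAs, so the size of both differences is uncertain. Cox4i2, Cox6b2, Ndufa4l2 and Ndufb8 entered the test through the aorta, where they are high, and kept these calls with no filter. Cox4i2 and Cox6b2 were the 2 that were not lower in adult valve. Cox4i1 (-0.84 ± 0.23) and Atp5pd (-0.85 ± 0.26) also passed, but without neonatal valve 3 they were at -0.64 and -0.59 with limma adjusted p of 0.068 and 0.12, and without neonatal aorta 1 at -0.76 and -0.71 with 0.063 and 0.11. The call of Atp5pd was also lost without neonatal aorta 2 or neonatal valve 2. The higher gene was Ndufaf4, an assembly factor of complex I (0.77 ± 0.27, limma adjusted p just under the threshold), whose call was lost when any of 7 arrays was left out, all 3 neonatal aorta arrays among them, with differences of 0.66 to 0.98. In complex II, Sdha (0.56 ± 0.43) and Sdhb (-0.51 ± 0.41) had the highest and lowest differences, and in complex III, Uqcrh (0.18 ± 0.21) and Uqcr10 (-0.86 ± 0.37).

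Between the ages, nearly all genes leaned lower in adult valve, and few passed singly. Against neonatal valve, adult valve had 9 of 84 genes lower and none higher, beside 5.21% of all probe sets lower and 4.00% higher. The median difference was -0.91, beside -0.04 over all probe sets, 80 of 84 genes were below 0, and 51 had all 3 adult arrays below all 3 neonatal arrays, against 18.5% of all probe sets. At an unadjusted p under 0.05 there were 63 genes, against 26.6% of all probe sets in either direction. Of the 9 called, 6 were of ATP synthase: Atp5me (-1.38 ± 0.30, limma adjusted p = 0.019), Atp5pb (-1.34 ± 0.36), Atp5f1d (-1.28 ± 0.36), Atp5mg (-1.15 ± 0.27), Atp5mpl (-1.05 ± 0.30) and Atp5mk (-0.95 ± 0.25). The others were Uqcrfs1 (-1.90 ± 0.53, 0.048) and the complex I genes Ndufa9 (-1.42 ± 0.40) and Ndufb7 (-1.29 ± 0.32).

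Atp5me, subunit e of the membrane part, had signals of 4422, 4186 and 2348 in neonatal valve and of 1378, 1524 and 1180 in adult valve, with no overlap. Its call was lost without neonatal valve 1 or 2 or adult valve 1 or 3, at differences of -1.21 to -1.39. The count of called genes turned on single arrays: it was 0 without neonatal valve 1 or without adult valve 1, 1 without neonatal valve 2 or without adult valve 3, 2 or 3 without any neonatal aorta array, 23 without adult aorta 3, 26 without adult aorta 1 and 29 without adult valve 2. Without adult aorta 1 and adult valve 2 together, 47 genes were lower and 1 was higher, with a median of -1.12. Over the 12 arrays left out in turn, the median itself stayed between -1.12 and -0.73. Heart muscle markers moved with this comparison: all 12 were above 171.944 on each neonatal valve array, and 9, 12 and 7 of them on adult valve 1, 2 and 3. The RNA ratios moved with it too. The beta-actin ratio was 7.24 to 8.84 on the neonatal and 10.6 to 14.0 on the adult valve arrays, and that of GAPDH 1.97 to 2.60 and 2.78 to 5.13, without overlap in either. The part of the markers and of the ratios in the result was not tested.

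In the aorta few of the genes differed between the ages. Adult aorta had 1 of 84 genes higher and 2 lower than neonatal aorta, beside 1.94% of all probe sets higher and 5.37% lower. The median difference was 0.09, beside -0.08 over all probe sets, with 59 genes above 0 and 25 below. With quantile normalization the median was -0.05 and 50 genes were below 0, so no direction can be given for the set. All 3 called genes were isoforms of complex IV. Without any 1 of the neonatal aorta arrays 1 gene was called, and without adult aorta 3 there were 5. In complex I the differences ran from -0.60 (Ndufc2) to 0.60 (Ndufa1), in complex II from 0.05 (Sdhb) to 0.62 (Sdhc), in complex III from -0.26 (Uqcrfs1) to 0.48 (Uqcrq) and in ATP synthase from -0.56 (Atp5if1) to 0.75 (Atp5f1e). None of these passed.

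Cox8b and Cox6a2, muscle isoforms of complex IV, took values on the adult aorta arrays that are described next, and their promoters are printed here beside that of a ubiquitous relative. Each sequence runs from 250 bases before to 50 bases after a start site of the RefSeq annotation of build GRCr8, 5′ to 3′ on the gene's strand, in lower case. Capitals mark each match to CAGCTG, an E-box that muscle transcription factors can bind. Cox8a (chr1:213833574-213833873, minus strand) and Cox8b (chr1:205408224-205408523, minus strand) encode the same subunit, and Cox6a2 (chr1:192219667-192219966, minus strand) is the muscle form of subunit VIa. Cox6a1 has no entry in the table.
Cox8a: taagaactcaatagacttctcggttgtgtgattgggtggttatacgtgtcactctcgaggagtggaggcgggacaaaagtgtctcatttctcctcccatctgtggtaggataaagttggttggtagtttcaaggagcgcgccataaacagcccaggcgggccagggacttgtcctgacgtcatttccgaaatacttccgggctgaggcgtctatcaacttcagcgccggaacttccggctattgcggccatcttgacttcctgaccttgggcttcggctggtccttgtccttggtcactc
Cox8b: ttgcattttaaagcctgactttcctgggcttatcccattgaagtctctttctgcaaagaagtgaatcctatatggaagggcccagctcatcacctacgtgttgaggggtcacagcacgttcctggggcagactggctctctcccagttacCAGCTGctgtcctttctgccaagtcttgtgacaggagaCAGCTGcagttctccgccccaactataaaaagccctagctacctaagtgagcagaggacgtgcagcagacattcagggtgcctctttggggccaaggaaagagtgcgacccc
Cox6a2: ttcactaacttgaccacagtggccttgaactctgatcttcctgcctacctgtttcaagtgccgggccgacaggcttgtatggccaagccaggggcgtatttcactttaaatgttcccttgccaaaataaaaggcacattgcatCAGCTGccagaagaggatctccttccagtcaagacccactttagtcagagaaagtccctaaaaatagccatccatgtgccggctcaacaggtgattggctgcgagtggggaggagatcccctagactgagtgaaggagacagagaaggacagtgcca

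The Cox8b window holds 2 matches and the Cox6a2 window 1, while the Cox8a window holds none. CAGCTG occurs in 15.1% of all 27457 promoter windows of this length and in 15.4% of the 78 windows of the genes described here, so a match is common and marks no site by itself. The windows of Cox8b and Cox6a2 hold 5 CG dinucleotides each and that of Cox8a holds 16. Over the 78 genes the median was 20, against 7 over all promoters.

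Cox8b rose with age in the aorta. Its signals were 1660, 1204 and 1346 in neonatal aorta and 12350, 17566 and 4106 in adult aorta. All 3 adult arrays were above the neonatal ones, with adult aorta 3 well below adult aorta 1 and 2. The difference was 2.79 ± 0.68 (6.92-fold, limma adjusted p = 0.033). Without adult aorta 2 it was 2.36 with an adjusted p of 0.11, and without any 1 of the neonatal aorta arrays 2.69 to 2.92 with 0.085 to 0.11. In valve the signals were 2096, 2514 and 776 at birth and 214, 1228 and 346 in the adult, which overlap, and the age difference there did not pass (-1.83 ± 0.68). Adult valve was 21.4-fold below adult aorta (-4.42 ± 0.68, limma adjusted p = 0.00078). On adult aorta 1 skeletal muscle markers were high and Ucp1 was at 302. On adult aorta 2 and 3 Ucp1 was at 37326 and 16514, with skeletal muscle sums of 18314 and 12819. Myh1 alone gave 16026 and 9623 of those sums. In neonatal aorta Ucp1 was at 5394, 4256 and 295, and the skeletal muscle sums were 21934, 41467 and 15331. The part of these tissues in the Cox8b signals was not tested.

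Cox6a2 separated those same adult aorta arrays. Its signal was 12468 on adult aorta 1 and 32.5 and 9.53 on adult aorta 2 and 3, beside 2060, 1611 and 2214 in neonatal aorta. In neonatal valve it was 6039, 6601 and 3686, and in adult valve 609, 4041 and 411, where the high array is the one with the heart marker sum of 114592. The adult aorta arrays thus held both the highest and the lowest values, the low ones within the range read for absent control RNAs, and no comparison of Cox6a2 passed (adult valve against adult aorta 2.68 ± 2.01, limma adjusted p = 0.32). Without adult aorta 2 and 3 that difference turned to -3.64. Cox7a1, the muscle form of subunit VIIa, was dim, at 174, 165 and 141 in neonatal aorta, 401, 253 and 127 in adult aorta, 106, 213 and 55.7 in neonatal valve and 70.9, 128 and 106 in adult valve, and passed in none.

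**Figure D3:**
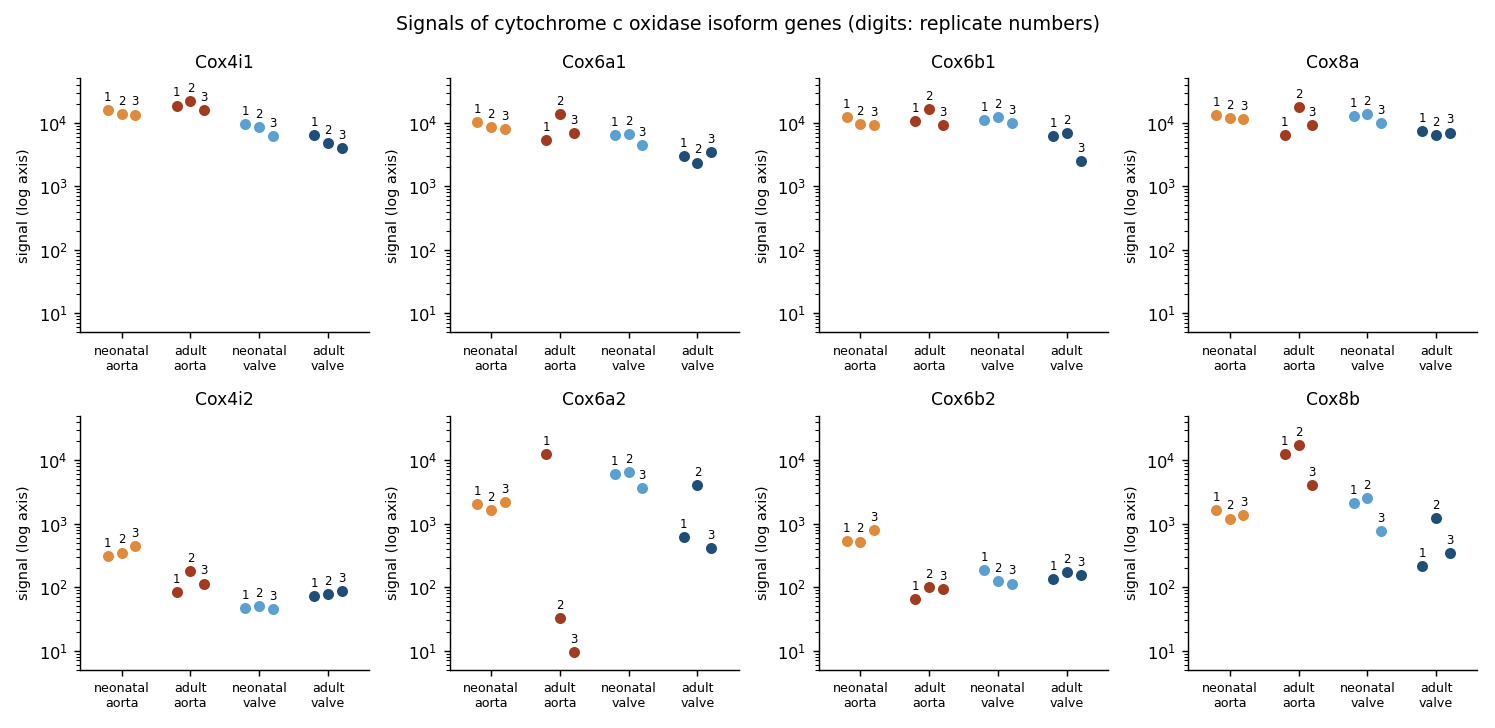
Signal (log axis) of complex IV isoform genes on each of the 12 arrays, coloured by group. Cox6a2 on adult aorta 1 (12468) is far above adult aorta 2 and 3 (32.5 and 9.53), while Cox8b is raised on all 3 adult aorta arrays.

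Cox6b2 and Cox4i2 fell with age in the aorta. Both were above 171.944 on all 3 neonatal aorta arrays and on 2 and 1 of the other 9, so they entered the test through the group in which they are high. With no filter the age difference in aorta had a limma adjusted p of 0.00066 and 0.024. Cox6b2 had signals of 542, 523 and 799 in neonatal aorta and of 66.1, 99.1 and 95.0 in adult aorta, with no overlap (-2.84 ± 0.30, 7.14-fold, limma adjusted p = 0.00057). It kept this call with each of the 12 arrays left out in turn (-2.95 to -2.64). In valve it was at 187, 126 and 114 at birth and at 134, 175 and 157 in the adult, which overlap (0.15 ± 0.30). Subtracting the aorta's age difference from the valve's gave 2.99 ± 0.42 (limma adjusted p = 0.040), and Cox6b2 was the only 1 of the 84 genes to pass this test of the difference, beside 0.0485% of all probe sets higher and 0.0108% lower. That call was lost with no filter (limma adjusted p = 0.054), and when any of 9 of the 12 arrays was left out, all 3 neonatal arrays of each tissue, adult aorta 3 and adult valve 2 and 3, at differences of 2.79 to 3.20 and adjusted p of up to 0.14. Cox4i2, the isoform of subunit IV known from lung and from oxygen sensing in smooth muscle, had signals of 314, 351 and 452 in neonatal aorta and of 84.9, 180 and 114 in adult aorta (-1.62 ± 0.34, limma adjusted p = 0.017). Without neonatal aorta 1, 2 or 3 the difference was -1.73, -1.65 or -1.47, with adjusted p of 0.051, 0.067 and 0.090. In neonatal valve it was at 45.9 to 50.1, within the range of absent control RNAs, and in adult valve at 73.4 to 86.6. Cox4i1, the ubiquitous form, was at 13516 to 16089 in neonatal aorta and 16141 to 21885 in adult aorta and did not pass (0.39 ± 0.23).

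The difference between the age differences leaned the same way in most genes without passing. Its median over the 84 genes was -1.04, beside 0.06 over all probe sets, and 79 genes were below 0. At an unadjusted p under 0.05 there were 45 genes, against 11.7% of all probe sets in either direction. By complex the medians were -0.98 in complex I, -1.31 in complex II, -1.48 in complex III, -0.69 in complex IV and -1.18 in ATP synthase. Cox8b had the largest negative value (-4.62 ± 0.97, limma adjusted p = 0.11). This comparison shares its arrays with the others and adds no new sample. With only adult aorta 1 kept in its group, 11 genes passed, 9 of them lower, and the lone array was then taken to vary as the other groups do.

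**Figure D4:**
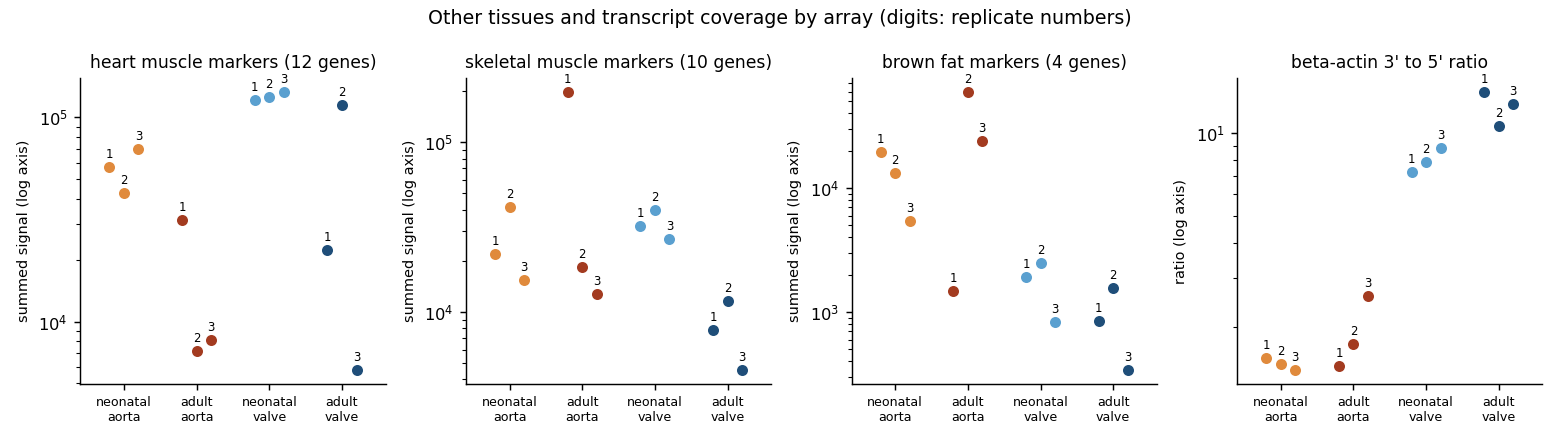
Summed signal of marker genes of other cell types (log axis) on each of the 12 arrays. The skeletal muscle sum is highest on adult aorta 1 (196379), the brown fat sum on adult aorta 2 (59223), and the heart sum of adult valve 2 (114592) is near those of the neonatal valve arrays.

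For 5 genes more than 1 probe set was tested, and the probe sets of a gene could disagree. Uqcrc2, a core protein of complex III, differed by -1.0 ± 0.37 between adult valve and adult aorta on its brighter probe set and by -6.17 ± 0.65 on its dimmer one, and in the newborn by 0.11 ± 0.37 and -4.46 ± 0.65. On the dimmer probe set the signals were 8549, 5447 and 5664 in neonatal aorta and 10332, 11336 and 2172 in adult aorta, but 343, 306 and 236 in neonatal valve and 79.3, 206 and 41.4 in adult valve. On the brighter one, neonatal valve was at 12543, 9135 and 9014, within the range of neonatal aorta. Ndufa7 gave -1.35 ± 0.30 and -0.04 ± 0.32 in the adult, and Ndufaf7 -0.73 ± 0.22 and 0.20 ± 0.27. Sdhd and Ndufv3 gave values of like size on both in the adult (-0.91 and -1.18, and -2.21 and -1.77), but for Sdhd only the dimmer one passed. At birth the Sdhd probe sets had opposite signs (0.19 ± 0.33 and -0.40 ± 0.28). So did those of Ndufv3 for valve by age (-0.38 ± 0.34 and 0.80 ± 0.51), and none of these 4 values passed. Atp5mg, Ndufb8 and Ndufa11 each had a single probe set, so their large differences have no such second reading. The beta-actin ratio moves with the same division of the arrays, and its part in these differences was not tested.

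**Figure D5:**
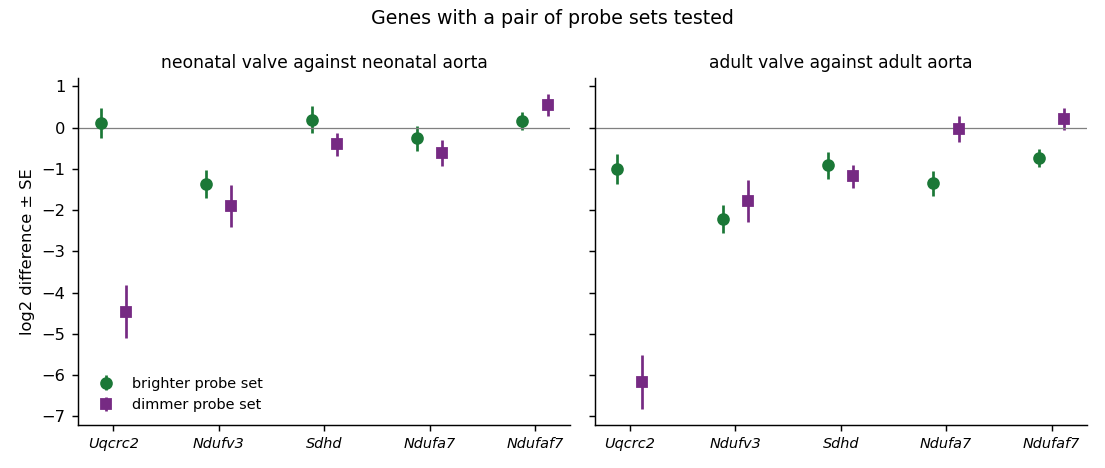
Log2 difference of valve against aorta (y axis), with standard errors, for the 5 genes with more than 1 tested probe set (x axis). Circles show the brighter and squares the dimmer probe set, with a panel each for the newborn and the adult. The values of Uqcrc2 lie far apart, at -1.0 and -6.17 in the adult.

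Other genes of energy metabolism were read in the same fits. The counts below stand beside 19.9% of all probe sets lower and 17.3% higher in adult valve than in adult aorta. Of 11 citric acid cycle genes tested, 6 were lower in adult valve than in adult aorta and none higher, with a median of -1.31. Idh3a, the catalytic subunit of isocitrate dehydrogenase, was lower by -3.11 ± 0.54, Ogdh by -2.29 ± 0.48 and Cs, citrate synthase, by -1.31 ± 0.34. Among 16 glycolysis genes 6 were lower and none higher (median -1.23), among them Pfkl (-2.09 ± 0.33) and Aldoa (-1.93 ± 0.39). No test set the subunit genes apart from these lists. Of 32 assembly factors tested outside the set, 9 were lower (median -0.41), such as the complex IV factors Cox11 (-3.30 ± 0.48) and Coa3 (-1.59 ± 0.23). Of 16 carriers and energy transfer genes 8 were lower (median -0.95), Ucp1 of brown fat (-8.48 ± 1.84) and the outer membrane channel Vdac1 (-2.77 ± 0.41) among them.

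Of 16 regulators of mitochondrial genes tested, 1 was higher and 2 were lower in adult valve than in adult aorta. Over all probe sets 17.3% were higher and 19.9% lower. Gabpa, a subunit of the ETS factor NRF2, was higher (1.19 ± 0.19, limma adjusted p = 0.00092). The nuclear receptors Esrra (-1.33 ± 0.46) and Esrrb (-1.55 ± 0.42) were lower, and the list median was -0.03. In the valve the coactivators Ppargc1a (-2.00 ± 0.53) and Ppargc1b (-1.32 ± 0.34) fell with age, and no listed regulator rose. Beside them, 5.21% of all probe sets fell and 4.00% rose. At birth Ppargc1a (2.82 ± 0.53), Esrrg (2.49 ± 0.48) and Tfam (0.74 ± 0.23), the packaging factor of mitochondrial DNA, were higher in valve than in aorta, and Tfb1m was lower (-0.87 ± 0.24). In that comparison 13.3% of all probe sets were higher and 19.3% lower. No test set the list of regulators apart from the array as a whole. In the aorta no listed regulator passed between the ages. Heart muscle markers were highest in neonatal valve, and their part in these values was not tested.

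Promoter windows were on record for 78 of the 86 genes. The palindromic motif of nuclear respiratory factor NRF1, in capitals in the last sequence, was found on either strand in 5 of them (6.41%), beside 0.932% of all promoters. These were Ndufa11, Ndufaf4, Ndufaf5, Atp5me and Atp5po. With its 2 central bases free, which includes the former, it was found in 16 (20.5%), beside 6.15%. The ETS motif CCGGAAGTG was in 3 (3.85% beside 1.98%) and TCAAGGTCA, of estrogen-related receptors, in 2 (2.56% beside 0.412%). The windows of these genes were also richer in G and C, with a median of 56.0% against 52.3%. The window of Ndufa11 (chr9:1637364-1637663, plus strand, build GRCr8, RefSeq) is printed because it holds 2 overlapping NRF1 matches, in capitals, in a gene that was low in valve at both ages.
Ndufa11: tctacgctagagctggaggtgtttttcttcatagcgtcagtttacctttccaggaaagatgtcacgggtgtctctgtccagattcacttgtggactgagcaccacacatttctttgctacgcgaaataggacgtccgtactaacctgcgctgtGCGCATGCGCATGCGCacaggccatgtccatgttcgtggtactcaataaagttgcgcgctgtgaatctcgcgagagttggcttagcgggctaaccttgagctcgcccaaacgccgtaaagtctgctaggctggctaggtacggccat

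The 5 genes with the NRF1 motif did not all differ alike between the tissues. In adult valve against adult aorta Ndufa11 was at -3.17 ± 0.44, Atp5me at -1.54 ± 0.30 and Atp5po at -1.20 ± 0.29, all lower, while Ndufaf4 (0.40 ± 0.27) and Ndufaf5 (0.03 ± 0.20) did not pass.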

How the data were processed

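The authors deposited intensity values, 1 linear signal per probe set, for which the submitters' processing notes name Affymetrix Expression Console and MAS5. No source used here gives their versions or the target of scaling. All 12 arrays had a trimmed mean (2% off either end) of 500.1 to 500.2. Trizol and RNeasy columns served for the RNA, per the labels' protocols. The 31099 probe sets include 57 controls, left out of all tests. Names came from the array's annotation table, in which 20826 probe sets have 1 symbol, 436 several and 9780 none. All 86 member genes matched the reference by gene ID.

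Signals under 1 were set to 1, log2 was taken, and the 18552 probe sets above 171.944, the median signal, on at least 3 of 12 arrays were fitted with limma 3.58.1 in R 4.3.3 (1 mean per group, eBayes with trend, leaving 8 residual degrees of freedom). P-values were two-sided and adjusted by Benjamini and Hochberg over all probe sets tested. The 3 arrays per group limit the precision. The scripts were tested on simulated data. The members and gene lists were chosen with earlier results of these data known, so no count over them is independent support. Named were all isoform families and Sdh genes, per complex and comparison up to 5 called genes with the largest difference, or the extremes where none was called, and up to 3 called genes per other list. Beyond this rule Ndufb3, the complex I core subunits, Cox7a2l, Atp5f1a and Atp5f1b, Atp5pb and Atp5pd, and genes with several probe sets or an NRF1 match were named after their values were seen. Alternatives covered log scale, filter, normalization, centring, group labels, a batch term, array weights, the trend, the probe set per gene, the replicate number and each array left out. Marker sums leave out genes without a single-symbol probe set. No protein sequence was used here.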

Additional observations from a re-analysis of the deposited data

Results flagged for a closer look

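Cox6b2 met a test of a difference between tissues. Its age difference was 0.15 ± 0.30 in valve and -2.84 ± 0.30 in aorta, and the difference between them was 2.99 ± 0.42 in log2 (limma adjusted p = 0.040, over 18552 probe sets). All 3 adult aorta arrays (66.1 to 99.1) lay below all 3 neonatal aorta arrays (523 to 799), while the valve arrays of both ages lay between 114 and 187. The adjusted p was 0.14 or less with 1 array left out and passed in 3 of those 12 fits. Cox6b2 was above the filter on all 3 neonatal aorta arrays and on 2 of the other 9, and with no filter the difference of 2.99 had an adjusted p of 0.054 by limma.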

How the results depend on the processing

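The count of 62 called genes between adult valve and adult aorta was 53 to 70 with 1 array left out, and its median difference -1.68 to -1.23. Grouping by the description and tissue entries, which exchanges adult aorta and neonatal valve, gave 9 genes and a median of -0.91 there, 17 genes and -0.37 for aorta by age, 62 and -1.42 for valve by age, and 3 and 0.09 for the newborn tissues. Among the gene results recomputed, which are not all called genes, it also turned Cox4i1 and Ndufa4l2 to -0.84 and -2.14 for aorta by age. Between the newborn tissues it turned Cox4i1 to 0.39, Ndufa4l2 to 0.65, Atp5mg to 0.12, Atp5pd to 0.09, Cox7b and Ndufa5 to 0.06, Ndufaf4 to -0.50, Ndufb10 to 0.02 and Ndufv3 to 0.46. No other called gene result among those recomputed changed direction under another alternative. The 9 genes of valve by age became 3 without the filter, 3 without the intensity trend and 4 with arrays centred. They became 26 with array weights, 31 with quantile normalization and 0 to 29 with 1 array left out. With a batch term for neonatal aorta 2 and 3 they became 3. The labels name no such batch, and with the term the neonatal aorta mean rests on neonatal aorta 1 alone. The 3 genes of aorta by age became 1 with the batch term, 8 with array weights and 1 to 5 with 1 array left out, and the 17 of the newborn tissues became 8, 27 and 10 to 18. Centring moved the median of aorta by age from 0.09 to 0.22 and that of the newborn tissues from -0.37 to -0.25. The single gene of the difference between age differences was lost without the filter and with the batch term (0 genes each), gained to 3 with array weights and was 0 to 1 with 1 array left out. The replicate numbers did not pair the samples (correlations of deviations -0.31 to 0.24); with them as a replicate block, 35 genes passed for valve by age and 0 for the difference between age differences. Of 2 alternatives chosen after seeing the data, leaving out adult aorta 1 and adult valve 2 gave 48 genes for valve by age and 0 for the difference between age differences. Leaving out adult aorta 2 and 3 gave 39 for valve by age, 6 for aorta by age and 11 for the difference, with Cox6a2 at -3.64 between the adult tissues and -5.08 for the difference. The cause of these shifts was not tested. Signals near the level of absent control RNAs limit Ndufa4l2, Cox4i2 and Cox7b2, whose lowest group means were 44.0, 47.8 and 12.6, and Ndufb8, at 34.4 and 40.4 on adult valve 1 and 3.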
